A study of Mus musculus with 12 samples.

Results

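The AMPA receptor genes described here are the 4 pore-forming subunit genes Gria1, Gria2, Gria3 and Gria4 and 6 genes of auxiliary proteins: the TARPs (transmembrane AMPA receptor regulatory proteins) Cacng2, Cacng3 and Cacng8, the cornichons Cnih2 and Cnih3, and Shisa9. They were taken by gene name from tables of 54532 genes and 137862 transcripts, in which these 10 genes have 44 transcripts, and all 10 passed the filter on low values. RNA of the hippocampus of mice aged 3 months was sequenced after removal of ribosomal RNA, in 12 libraries: 3 from Atrx-cKO females, 3 from control females, 3 from Atrx-cKO males and 3 from control males. The title of the series places the Atrx deletion in neurons, so the glia and vessels of the same tissue keep the gene. The sources used here do not name the Cre driver, the deleted exons, the strain or the alleles that the controls carry. The design text speaks of 3 pairs of mice in each sex but does not say which libraries form a pair, and nothing ties a library to a litter, so p-values measure the spread between these libraries.

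AMPA receptors are glutamate-gated channels made of 4 subunits, and they carry most of the fast excitatory current at hippocampal synapses. The subunit GluA2, made from Gria2, carries an RNA-edited residue in its pore that blocks the entry of calcium, so the proportion of GluA2 sets the calcium permeability of the receptor. TARPs, cornichons and CKAMP44, the product of Shisa9, bind the assembled channel and change its traffic to the membrane and its gating. Each subunit gene holds a pair of alternative exons, flip and flop, of which a transcript normally uses 1, and receptors with flop exons desensitise faster in general.

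The flip and flop exons are 115 bases long in all 4 genes. They are shown because the isoform results turn on reads that can tell them apart. The sequences are those of the GENCODE M21 transcripts on GRCm38.p6, in the sense of the gene, and capitals mark the bases that differ between flip and flop of the same gene. In Gria1, on the plus strand, flip lies at chr11:57310608-57310722 and flop at chr11:57309769-57309883. In Gria2, on the minus strand, flip lies at chr3:80690404-80690518 and flop at chr3:80691320-80691434. In Gria4, on the minus strand, flip lies at chr9:4427030-4427144 and flop at chr9:4432773-4432887.
Gria1 flip: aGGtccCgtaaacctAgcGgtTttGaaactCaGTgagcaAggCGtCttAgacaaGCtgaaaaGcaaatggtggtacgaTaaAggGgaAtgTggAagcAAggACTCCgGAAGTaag
Gria1 flop: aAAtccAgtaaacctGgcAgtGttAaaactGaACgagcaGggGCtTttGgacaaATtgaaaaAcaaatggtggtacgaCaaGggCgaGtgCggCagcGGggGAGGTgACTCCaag
Gria2 flip: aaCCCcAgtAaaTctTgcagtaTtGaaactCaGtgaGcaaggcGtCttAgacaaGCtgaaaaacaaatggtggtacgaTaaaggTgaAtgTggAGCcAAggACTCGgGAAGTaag
Gria2 flop: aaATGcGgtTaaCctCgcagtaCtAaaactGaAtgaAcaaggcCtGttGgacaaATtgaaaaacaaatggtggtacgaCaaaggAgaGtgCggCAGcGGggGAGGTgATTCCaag
Gria4 flip: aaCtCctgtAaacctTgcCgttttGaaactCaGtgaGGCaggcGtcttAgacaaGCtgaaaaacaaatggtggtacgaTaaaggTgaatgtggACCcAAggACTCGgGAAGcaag
Gria4 flop: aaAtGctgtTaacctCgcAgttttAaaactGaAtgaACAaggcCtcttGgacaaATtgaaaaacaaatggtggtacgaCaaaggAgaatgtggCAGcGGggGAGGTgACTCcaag
Flip and flop of a gene differed at 36 of 115 bases in Gria1 and in Gria2, at 32 in Gria3 and at 31 in Gria4, which is 68.7% identity in Gria1 and Gria2, 72.2% in Gria3 and 73.0% in Gria4. The same kind of exon was more alike between genes, with 87.8 to 92.2% identity among the 4 flip exons and 87.8 to 94.8% among the 4 flop exons. Reads that cover no base in capitals, such as reads of exons that flip and flop transcripts share, cannot by themselves separate flip from flop.

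The deposited tables give FPKM (fragments per length of transcript, relative to all mapped fragments) and coverage for each transcript, with no counts, and mapped sequence recovered from these values ran from 1.16 to 8.64 Gb per library. It averaged 2.76 Gb in cKO females, 6.10 in control females, 6.93 in cKO males and 7.77 in control males. The lowest, 1.16 Gb, was that of cKO female 2, so depth differs along with genotype in females. Coverage of 1459 olfactory and vomeronasal receptor genes, which the hippocampus is not known to use, gave a background of 0.312, 2.00 and 2.28 FPKM in cKO females and 0.0882 to 0.610 FPKM in control females, against 0.0185 to 0.293 FPKM in cKO males and 0.00679 to 0.0284 FPKM in control males. Gene levels are therefore given as background-subtracted scaled FPKM: bases per length of the union of a gene's exons, less this background, scaled between libraries. Atrx, the deleted gene, had 6.19 ± 0.494 in cKO females and 11.8 ± 0.693 in control females, and 7.26 ± 1.24 in cKO males and 10.2 ± 0.134 in control males on this scale (SD, n = 3 each). Its groups did not overlap in either sex, and deposited FPKM of Atrx differed with an exact two-sided permutation p of 0.005 over both sexes, the smallest that this design allows, and of 0.1 within each sex, also the smallest allowed. In the fit across all genes the log2 difference of Atrx was -0.88 in females (adjusted p = 0.0193, limma) and -0.47 in males, where it did not pass (adjusted p = 1, limma). The female call of Atrx was lost without any 1 of 7 libraries, cKO female 2, the 3 control females, cKO male 1, control male 1 and control male 2, with adjusted p-values up to 0.14.

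On the background-subtracted scale, the order of the levels was the same at its top in all libraries. Over the 12 libraries, Gria1 averaged 133 ± 31.7 background-subtracted scaled FPKM (SD), Gria2 70.5 ± 8.49 and Cnih2 44.7 ± 5.66. The lowest Gria1 library, at 92.8, lay above the highest Gria2 library, at 83.1, and the lowest Gria2 library, at 55.9, lay above the highest Cnih2 library, at 54.1. Gria3 averaged 14.8 ± 3.16 and Gria4 11.5 ± 1.76, and these neighbours overlapped. Cacng8 followed with 7.30 ± 2.13, Cnih3 with 5.04 ± 2.36, Shisa9 with 4.35 ± 1.12, Cacng3 with 4.21 ± 1.88 and Cacng2 with 2.80 ± 0.823. From Gria3 down the list, each gene's range overlapped that of the next. Summed per gene as deposited, without subtraction or scaling, Gria2 averaged 187 ± 55.9 FPKM and Gria1 154 ± 43.4 FPKM, so the order of the top pair differs between the scales. The union of exons, by which the background-subtracted scale divides, is 15548 bases long in Gria2 and 6043 in Gria1. Deposited Gria1 lay above Gria2 in the 3 cKO females and below it in the other 9 libraries.

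**Figure D1:**
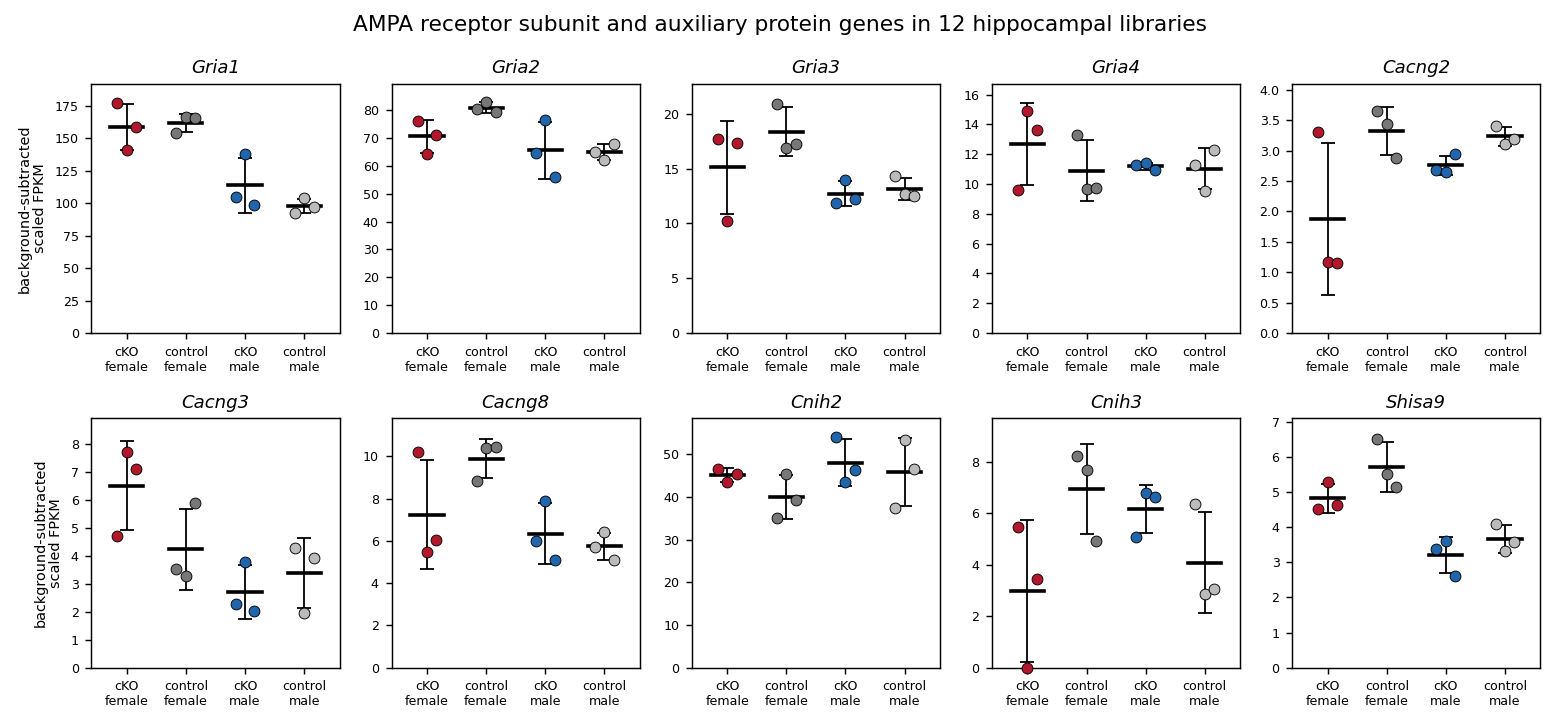
Background-subtracted scaled FPKM of the 10 genes in each group, with 1 point per library, the group mean as a line and the SD as a bar. The cKO female points of Cacng2 fall apart into 3.31 and a pair at 1.17 and 1.15, and the control female points of Gria1, at 154 to 166, lie above the control male points, at 92.8 to 104.

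Whether loss of Atrx changed the transcripts of the receptor was asked in each sex. None of the 10 genes passed an adjusted p of 0.05 for cKO against control (limma across 15042 genes, Benjamini-Hochberg) in females, where 0.0731% of all genes did, or in males, where 0.00665% did. None passed for the mean of both effects either, where 0.0332% of genes did, nor for the male effect minus the female effect, where 0% did and 929 genes had an unadjusted p under 0.05. The median log2 difference of the 10 genes was -0.21 in females and 0.02 in males, beside 0.01 and 0.03 for all genes tested. In bulk tissue, fewer cells of a type and less RNA per cell cannot be told apart.

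Gria1, the highest subunit gene on the background-subtracted scale but not as deposited, had 177, 141 and 158 background-subtracted scaled FPKM in cKO females. It had 154, 166 and 166 in control females. It had 105, 138 and 98.5 in cKO males against 92.8, 104 and 97.2 in control males. The groups overlapped in both sexes, and among the males cKO male 2 stood above the other 5 libraries. The log2 difference was -0.03 in females (95% interval -0.32 to 0.25) and 0.20 in males (-0.08 to 0.48). With 3 libraries a group, true differences anywhere within these intervals remain compatible with the data.

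Gria2 had 76.2, 64.3 and 71.1 background-subtracted scaled FPKM in cKO females against 80.3, 83.1 and 79.3 in control females, and the female groups did not overlap. Lower levels without overlap were found in 7.55% of all genes, and Gria2 was the 1 of these 10 genes with them in females. The log2 difference was -0.20 (95% interval -0.44 to 0.04, adjusted p = 0.238, limma). In males it had 64.7, 76.4 and 55.9 in cKO against 64.9, 62.2 and 67.7 in controls, with a log2 difference of 0.00 (-0.23 to 0.24) and overlapping groups. On deposited FPKM, without scaling or subtraction, Gria2 passed the threshold in females, with a log2 difference of -1.02 (adjusted p = 0.0493, limma), but so did 24.1% of all genes on that scale. That sum includes the transcript Gria2-203, described with the isoforms.

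Gria3, which lies on the X chromosome, had 17.7, 10.3 and 17.4 background-subtracted scaled FPKM in cKO females and 20.9, 16.9 and 17.3 in control females. It averaged 12.7 ± 1.14 in cKO males and 13.2 ± 1.02 in control males (SD, n = 3 each). Its log2 differences were -0.31 in females (95% interval -0.71 to 0.09) and -0.05 in males (-0.45 to 0.35). Gria4, which in the hippocampus is known mainly from interneurons, had 9.57, 14.9 and 13.6 in cKO females and 13.3, 9.65 and 9.76 in control females, and its groups overlapped. It averaged 11.2 ± 0.236 in cKO males and 11.0 ± 1.40 in control males, and its log2 differences were 0.20 (-0.17 to 0.57) and 0.03 (-0.34 to 0.40).

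Within the summed levels of the 4 subunit genes, the share of Gria2 does not depend on the scaling between libraries. It does depend on the background, which was subtracted library by library. Gria2 made up 27.2, 27.9 and 27.3% of the summed background-subtracted FPKM in cKO females and 29.9, 30.1 and 29.1% in control females. It made up 33.6, 31.8 and 31.5% in cKO males and 35.4, 33.1 and 35.7% in control males. The female groups did not overlap and the male groups did. Gria1 took 61.7 ± 1.21% in cKO females and 59.5 ± 1.90% in control females, and 55.8 ± 1.61% in cKO males and 52.3 ± 2.46% in control males (SD, n = 3 each). The level of Gria1 over that of Gria2 was thus 2.25 ± 0.0644 in cKO females against 2.00 ± 0.0866 in control females, and 1.73 ± 0.0974 in cKO males against 1.51 ± 0.137 in control males. These ratios are given as a description and were not tested. For the shares, the exact two-sided permutation p over both sexes was 0.01 for Gria2, 0.03 for Gria1, 0.11 for Gria3 and 0.64 for Gria4. For Gria2 it was 0.1 in females and 0.2 in males. These p-values are not adjusted for the 4 genes. On deposited FPKM, cKO minus control for the Gria2 share was -9.19 percentage points in females and -1.82 in males. After subtraction it was -2.28 and -2.42. The Gria3 difference in females was 1.79 on deposited FPKM and -0.948 after subtraction, and no other gene changed direction in either sex. The level of Gria2 on both scales counts the transcript with both the flip and the flop exon, described with the isoforms. The receptor-gene background differed between the same groups, and its part in the shares and ratios was not tested.

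**Figure D2:**
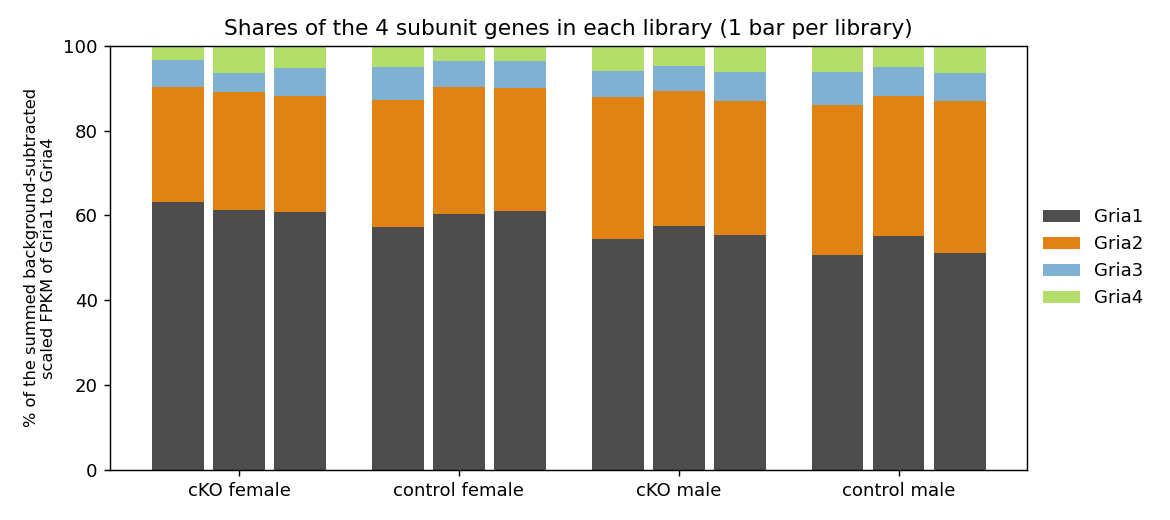
Share of each subunit gene in the summed background-subtracted scaled FPKM of Gria1 to Gria4, in percent, with 1 bar per library. The Gria2 band spans 27.2 to 27.9% in cKO females against 29.1 to 30.1% in control females, and 31.5 to 33.6% in cKO males against 33.1 to 35.7% in control males.

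Among the TARPs, which anchor the receptor at the synapse and slow its gating, Cacng2 had the widest split. Cacng2 encodes stargazin and had 3.31, 1.17 and 1.15 background-subtracted scaled FPKM in cKO females against 3.65, 3.43 and 2.88 in control females. The cKO females 2 and 3, which had the low values, are the libraries with the receptor-gene background of 2.00 and 2.28 FPKM. The log2 difference was -0.80 (95% interval -1.40 to -0.20, adjusted p = 0.118, limma). Without cKO female 1 it was -1.20 with an adjusted p of 0.000157, in a fit that called 38.6% of all genes in females, while with cKO female 1 as the only cKO female it was 0.00. With libraries weighted by their spread it was -1.06 (adjusted p = 0.0143, limma), where 22.3% of all genes were called. The male effect on Cacng2 exceeded the female effect by 1.0 without cKO female 1 (adjusted p = 0.00427) and by 0.86 with weighted libraries (adjusted p = 0.0434). These fits called 20.2% and 10.6% of all genes for the difference, and with all libraries weighted alike this difference did not pass. On deposited FPKM, the same 6 libraries had 3.95, 2.77 and 3.02 in cKO females and 4.34, 4.06 and 3.57 in control females. Scaled by the same factors but without subtraction, the only transcript, Cacng2-201, had a log2 difference of 0.18 in females. The median of all transcripts tested was 0.93 there, so this value lay under the median although it was positive. In the gene fit without subtraction, which had its own scaling factors, Cacng2 stayed lower in cKO females. Cacng2 had 2.67, 2.65 and 2.94 in cKO males and 3.41, 3.11 and 3.19 in control males, with a log2 difference of -0.20 (-0.80 to 0.40). These groups did not overlap. Lower levels without overlap were found in 4.69% of all genes in males, and Cacng2 was the 1 of these 10 genes with them.

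Cacng8 encodes the TARP gamma-8, which is enriched in the hippocampus, and was the most abundant of the 3 TARP genes. It had 10.2, 5.48 and 6.06 background-subtracted scaled FPKM in cKO females against 8.82, 10.4 and 10.4 in control females. Again cKO female 1 lay with the controls and cKO females 2 and 3 below them. The log2 difference in females was -0.47 (95% interval -0.94 to 0.00, adjusted p = 0.173, limma), -0.73 without cKO female 1 (adjusted p = 0.00697, with 38.6% of all genes called), and 0.04 with cKO female 1 as the only cKO female. Without cKO female 1 the male effect on Cacng8 exceeded the female effect by 0.84 (adjusted p = 0.0282), where 20.2% of all genes were called. In males Cacng8 averaged 6.33 ± 1.44 in cKO and 5.75 ± 0.648 in controls (SD, n = 3 each). Cacng3, which encodes gamma-3, had 4.72, 7.72 and 7.10 in cKO females and 3.55, 3.27 and 5.89 in control females, a log2 difference of 0.58 (-0.11 to 1.27), and 2.27, 3.80 and 2.03 in cKO males and 4.29, 1.97 and 3.93 in control males, a log2 difference of -0.27 (-0.96 to 0.43).

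Of the cornichons, which export the receptor from the endoplasmic reticulum and slow its deactivation, Cnih2 was the steadier. It had 46.6, 43.4 and 45.5 background-subtracted scaled FPKM in cKO females against 35.2, 45.4 and 39.2 in control females, and 54.1, 43.5 and 46.4 in cKO males against 37.4, 53.3 and 46.7 in control males. The groups overlapped in both sexes, with log2 differences of 0.18 (95% interval -0.12 to 0.48) and 0.08 (-0.22 to 0.38). Cnih3 had 5.47, 0 and 3.46 in cKO females against 8.22, 7.69 and 4.94 in control females. The 0 belongs to cKO female 2, where the background was 2.00 FPKM. Values under 0 after subtraction were set to 0, so it stands for a level at or under the background and not for absence. Deposited FPKM of Cnih3 in that library, summed over its transcripts, was 3.23, but the background is subtracted from bases per length of the union of exons. The log2 difference in females was -1.68 (-3.32 to -0.04, adjusted p = 0.165, limma), -0.58 without cKO female 2 and -2.37 without cKO female 1 (adjusted p = 0.0247, in the fit that called 38.6% of all genes). In males Cnih3 averaged 6.16 ± 0.938 in cKO and 4.09 ± 1.98 in controls (SD, n = 3 each), with a log2 difference of 0.61 (-1.03 to 2.25), the widest interval of the 10 genes.

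Shisa9 encodes CKAMP44, which slows recovery from desensitisation and is known best from dentate granule cells. It had 4.52, 5.29 and 4.64 background-subtracted scaled FPKM in cKO females against 6.50, 5.52 and 5.13 in control females, and 3.38, 3.60 and 2.62 in cKO males against 4.10, 3.32 and 3.56 in control males. Its log2 differences were -0.22 (95% interval -0.52 to 0.07) and -0.17 (-0.47 to 0.12). The summed level of 7 dentate granule cell marker genes was 51.0 to 69.8 in cKO females and 57.4 to 73.6 in control females, and 52.6 to 64.8 in cKO males and 45.2 to 52.5 in control males.

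**Figure D3:**
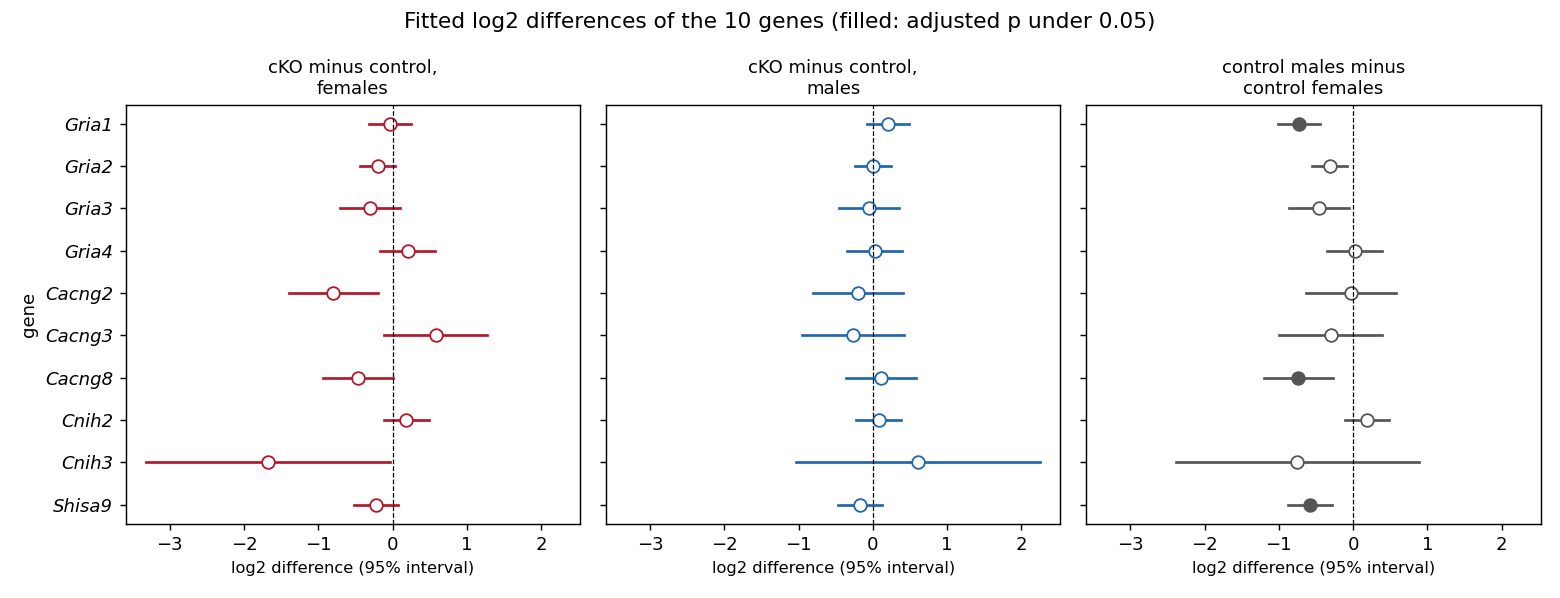
Fitted log2 differences of the 10 genes with 95% intervals for cKO minus control in females and in males and for control males minus control females, on a shared axis; filled points passed an adjusted p of 0.05. Filled points are found for Gria1, Cacng8 and Shisa9 in the comparison of the control groups, at -0.72, -0.73 and -0.58.

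The isoforms were read from the deposited transcript FPKM, without background subtraction. On that scale the median log2 difference of all 80411 transcripts tested was 0.93 for cKO against control in females and 0.17 in males, so values of single transcripts are to be read against it. Of the 44 transcripts of the 10 genes, 35 passed the filter. In females 1 of these 35 was lower in cKO at an adjusted p under 0.05 (limma) and none was higher, where 0.0323% of all transcripts were called lower and 0.0684% in either direction. In males none of the 35 passed, where 0.00995% of transcripts did. None passed for the mean of both effects, where 0.0323% did, or for the male effect minus the female effect, where 0.0149% did.

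The transcript that fell in cKO females was Gria2-203, which holds both the flip and the flop exon and is annotated as a target of nonsense-mediated decay. It had 1.89, 1.57 and 1.45 FPKM in cKO females against 144, 153 and 69.7 in control females, and 112, 125 and 42.5 in cKO males against 102, 49.4 and 116 in control males. All 3 cKO females were thus under 2 FPKM, and the other 9 libraries had at least 42.5. The log2 difference in females was -5.33 (95% interval -6.37 to -4.30, adjusted p = 0.00609, limma), and in males 0.03. The male effect exceeded the female effect by 5.36 on the log2 scale, which did not pass (adjusted p = 0.0704, limma), and the mean of both effects was -2.65 (adjusted p = 0.0522, limma). That difference passed without cKO female 1 (adjusted p = 0.00436) and without cKO male 3 (adjusted p = 0.0128), and the mean passed without the same libraries (adjusted p = 0.00118 and 0.0222). Without cKO female 1, however, 50.6% of all transcripts passed for the difference and 59.6% for the mean, whereas without cKO male 3 the shares were 0.0112% and 0.0274%.

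Gria2-203 took 1.38 ± 0.25% of the FPKM of Gria2 in cKO females and 48.9 ± 12.1% in control females, and 46.1 ± 13.7% in cKO males and 46.2 ± 12.8% in control males (SD, n = 3 each). Without this transcript, the remaining FPKM of Gria2 was 170, 96.7 and 99.1 in cKO females and 116, 119 and 130 in control females, and 95.7, 106 and 98.1 in cKO males and 102, 105 and 88.3 in control males. These groups overlapped in both sexes. The transcript is 3681 bases long and shares most exons with the flop transcript Gria2-201, of 10371 bases, and the flip transcript Gria2-202, of 4026 bases, so its FPKM depends on how StringTie divided shared reads. In cKO females, Gria2-201 had 98.2, 49.2 and 54.3 FPKM against 69.2, 72.5 and 79.6 in control females (log2 difference 0.31), and Gria2-202 had 9.77, 7.77 and 5.82 against 4.69, 4.98 and 5.03 (log2 difference 1.07, adjusted p = 0.0599, limma). The 5 retained-intron transcripts of Gria2, Gria2-204 among them, took 38.4 ± 2.24% of the gene in cKO females and 18.1 ± 4.13% in control females, and 20.0 ± 3.62% in cKO males and 18.2 ± 5.65% in control males (SD, n = 3 each). The total behind these shares includes Gria2-203, so they rise where it falls. In FPKM, Gria2-204, the largest of the 5, had 35.3, 17.1 and 20.6 in cKO females against 22.8, 22.3 and 23.5 in control females. Of the 5, only Gria2-207 did not overlap between the female groups, at 0.617 to 1.88 FPKM in cKO against 0.252 to 0.572. Its log2 difference was 0.98 (adjusted p = 0.101, limma), beside a median of 0.93 for all transcripts tested. The share of all transcripts without overlap was not counted, so this does not set Gria2-207 apart.

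Gria3 has a transcript of the same kind, Gria3-206, which holds both exons. It had 29.2, 0 and 19.7 FPKM in cKO females and 34.6, 30.9 and 26.2 in control females, and 19.3 to 22.4 in cKO males and 19.5 to 24.9 in control males. It was listed at 0 in cKO female 2 and had at least 19.3 FPKM in each of the other 11 libraries. Its log2 difference in females was -1.89 (adjusted p = 0.294, limma). The library cKO female 2 had the least mapped sequence, 1.16 Gb, and the part of depth in this 0 was not tested.

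**Figure D4:**
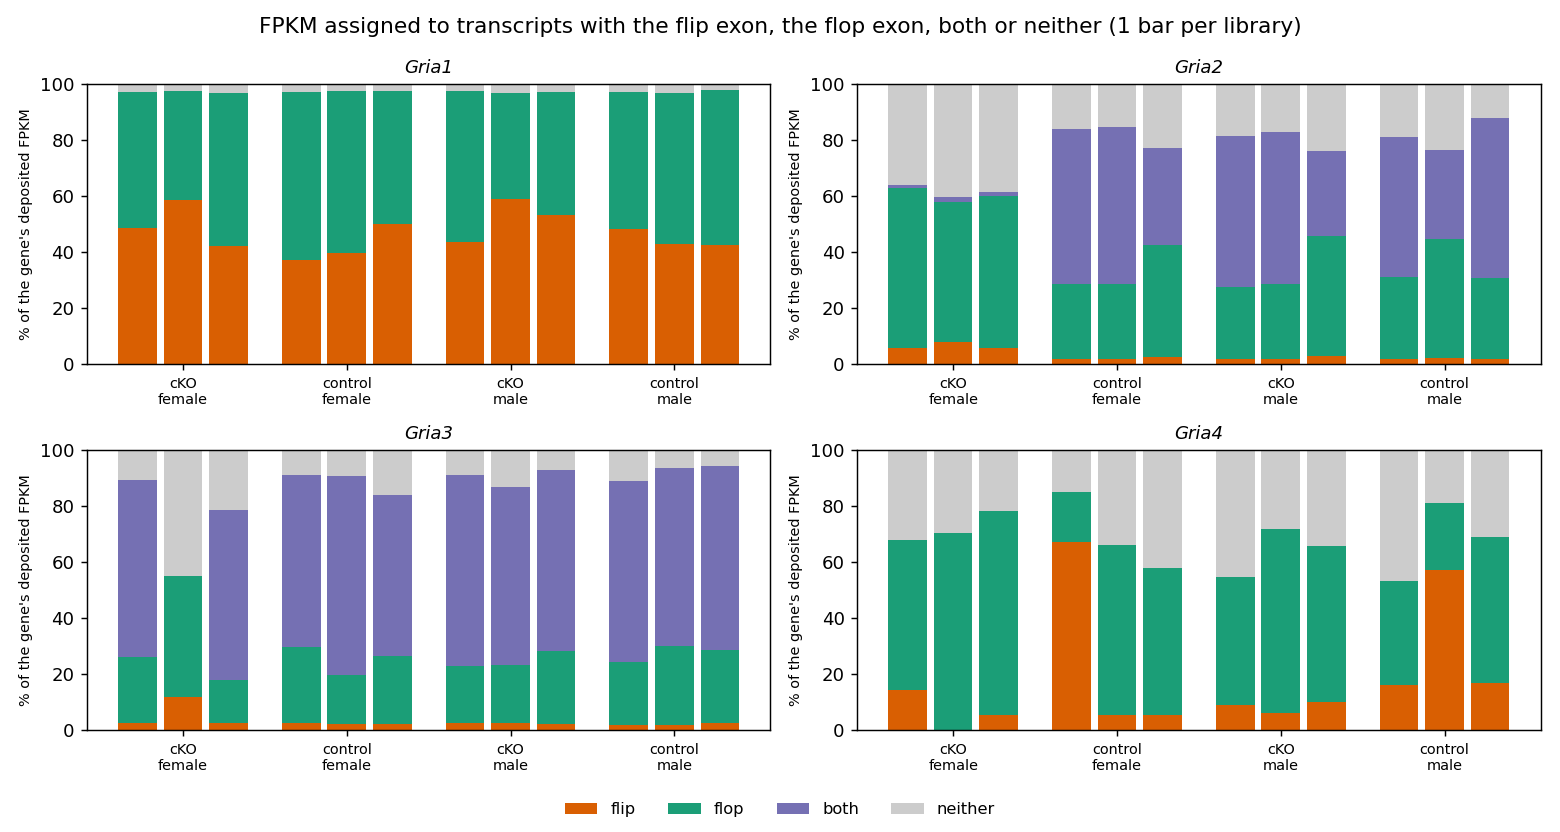
Percent of each subunit gene's deposited FPKM that was assigned to transcripts with the flip exon, the flop exon, both or neither, with 1 bar per library. Transcripts with both exons took 1.38 ± 0.25% of Gria2 in cKO females against 48.9 ± 12.1% in control females (SD, n = 3 each), and Gria1 had no transcript with both.

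The flip share was defined as the FPKM of transcripts with the flip exon alone in that of all transcripts with exactly 1 of the exons. Over the 12 libraries it averaged 48.5 ± 7.29% in Gria1, 24.2 ± 25.1% in Gria4, 10.8 ± 3.96% in Gria3 and 7.31 ± 2.41% in Gria2 (SD). Gria1 thus had near equal amounts of flip and flop, and Gria2 and Gria3 were mostly flop by this measure. Differences between cKO and control in these 4 shares were examined by exact permutation over libraries, two-sided. The smallest p is 0.1 within a sex and 0.005 over both sexes, and the p-values are not adjusted for the 4 genes.

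In Gria2 the flip share was 9.05, 13.6 and 9.68% in cKO females against 6.34, 6.43 and 5.94% in control females, and 6.41, 6.76 and 6.73% in cKO males against 6.36, 4.81 and 5.62% in control males. The groups did not overlap in either sex. The difference was 4.55 percentage points in females and 1.04 in males (exact permutation p = 0.1 each), and 2.79 over both sexes (exact permutation p = 0.005). Shares above 7% were found in cKO females alone, which are the libraries in which Gria2-203 was nearly missing, and cKO females 2 and 3 had the highest receptor-gene background. The part of the background in this share was not tested. Counting the transcripts with both exons for each exon turned the difference over both sexes to -12.7 percentage points (exact permutation p = 0.075). It turned in females alone, at -26.0 points (exact permutation p = 0.1), and in males it was 0.648 (exact permutation p = 0.6).

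In Gria1 the flip share was 50.0, 60.0 and 43.5% in cKO females against 38.4, 40.8 and 51.2% in control females, and 44.8, 60.9 and 54.9% in cKO males against 49.6, 44.2 and 43.4% in control males. The groups overlapped, and the difference over both sexes was 7.78 percentage points (exact permutation p = 0.075). It reached an exact permutation p of 0.04 without control female 3 and of 0.025 without cKO male 1. The shares rest on the pair of flip transcripts Gria1-201, with 30.1 to 80.5 FPKM, and Gria1-204, with 2.38 to 62.0 FPKM, and on the flop transcript Gria1-202, with 42.6 to 126 FPKM. In Gria3 the flip share was 9.29, 21.2 and 14.6% in cKO females against 8.61, 12.0 and 8.68% in control females, and 11.7, 11.0 and 7.90% in cKO males against 7.98, 6.51 and 9.57% in control males, a difference of 3.73 percentage points (exact permutation p = 0.065). It reached an exact permutation p of 0.02 without cKO female 1 and of 0.035 without cKO male 3, and counting Gria3-206 for each exon gave -2.79 percentage points, with -6.63 in females and 1.05 in males.

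Gria4 had the least stable flip share, with 21.2, 0.269 and 6.73% in cKO females against 78.8, 8.34 and 9.31% in control females, and 16.5, 8.71 and 15.4% in cKO males against 30.1, 70.8 and 24.4% in control males. The male groups did not overlap and the female groups did. The difference over both sexes was -25.5 percentage points (exact permutation p = 0.055), and the highest shares came from control female 1 and control male 2. Without control female 1 the difference was -13.8, and it reached p = 0.03, 0.035 and 0.025 without control female 2, control female 3 and control male 3 (exact permutation). The transcripts behind it had little signal, with 0.0317 to 13.3 FPKM for the flip transcript Gria4-202 2.57 to 8.31 FPKM for the flop transcript Gria4-204 and 0.564 to 8.89 FPKM for the other flop transcript, Gria4-201. Gria4-201 had 2.31, 8.89 and 4.20 FPKM in cKO females against 0.564, 1.75 and 2.45 in control females, and 3.24, 3.50 and 2.42 in cKO males against 0.937, 0.567 and 2.65 in control males, with overlap in both sexes (log2 difference in females 1.82, adjusted p = 0.0599, limma).

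**Figure D5:**
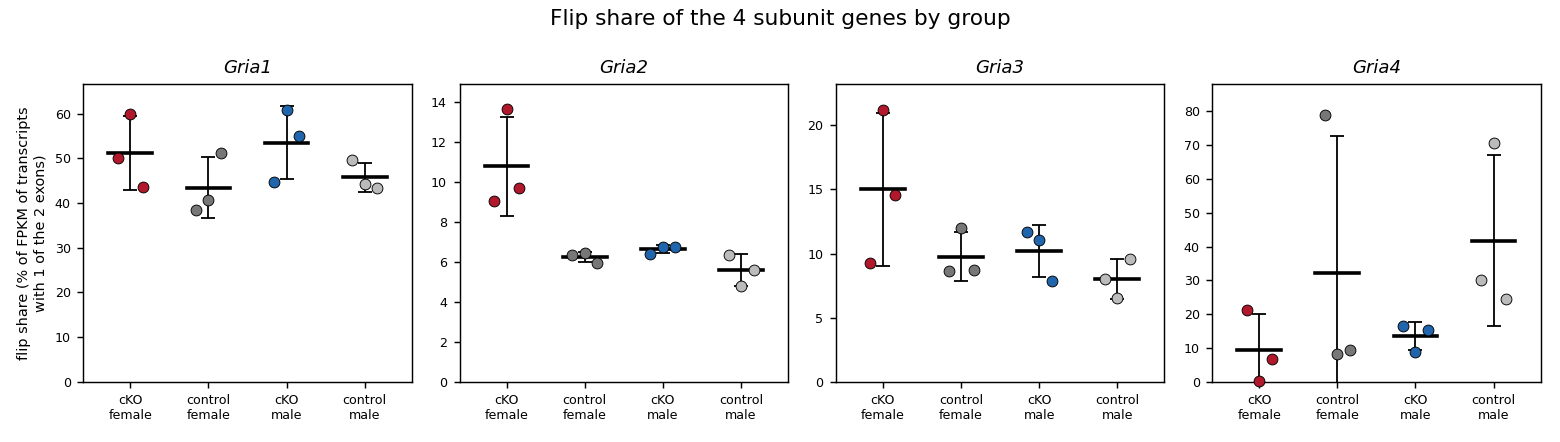
Flip share of the 4 subunit genes in percent, with 1 point per library, the group mean as a line and the SD as a bar; each panel has its own axis. In Gria2 the cKO female points, at 9.05 to 13.6%, lie above the control female points, at 5.94 to 6.43%, and in Gria4 single libraries at 78.8 and 70.8% set the control means.

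The isoforms of the auxiliary genes were simpler. Cacng2 and Cnih2 have 1 annotated transcript each. Cacng3-201 held 95.9% of the FPKM of Cacng3 on average, Cnih3-201 80.5% of Cnih3, Cacng8-201 76.2% of Cacng8 and Shisa9-202 60.7% of Shisa9. None of these transcripts passed for cKO against control in either sex.

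The comparison of the control groups gave the baseline of sex. Of the 10 genes, 3 were lower in control males than in control females at an adjusted p under 0.05 (limma) and none was higher, where 5.28% of all genes were called lower and 11.9% in either direction. Gria1 averaged 97.9 ± 5.56 background-subtracted scaled FPKM in control males and 162 ± 6.92 in control females (SD, n = 3 each), a log2 difference of -0.72 (SE 0.128, adjusted p = 0.00766, limma). Cacng8 averaged 5.75 ± 0.648 and 9.89 ± 0.929 in the same groups, a log2 difference of -0.73 (adjusted p = 0.0489, limma). Shisa9 averaged 3.66 ± 0.398 and 5.72 ± 0.704, a log2 difference of -0.58 (adjusted p = 0.0205, limma). The control libraries did not overlap for these 3 genes nor for Gria2 and Gria3, so 5 of the 10 were lower in every control male, against 27.5% of all genes.

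Gria2 averaged 65.0 ± 2.76 background-subtracted scaled FPKM in control males and 80.9 ± 1.93 in control females, but its log2 difference of -0.32 did not pass (adjusted p = 0.0869, limma). It passed without cKO male 2 (adjusted p = 0.0365) and without cKO male 3 (adjusted p = 0.0462), which enter the common estimate of the spread, with 12.5% and 11.5% of all genes called. Gria3 averaged 13.2 ± 1.02 and 18.4 ± 2.23, with a log2 difference of -0.46 (adjusted p = 0.131, limma) that passed without cKO female 2 (adjusted p = 0.0177, with 14.1% of all genes called). Gria4, Cacng2 and Cnih2 had log2 differences of 0.02, -0.03 and 0.19. No transcript of the 10 genes passed in this comparison, where 0.483% of transcripts did, and the flop transcript Gria1-202 came nearest, with a log2 difference of -0.78 (adjusted p = 0.057, limma), beside a median of -0.42 for all transcripts.

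Summed levels of some lists of cell type markers differed in this comparison, and those of others overlapped. The summed level of 10 pyramidal neuron markers was 300 to 310 background-subtracted scaled FPKM in control males and 410 to 419 in control females, and 3 of the 10 markers were called lower in control males, against 5.28% of all genes. The pentraxin receptor gene Nptxr is in this marker list and also among the associated proteins of the receptor. The summed level of 7 oligodendrocyte markers was 538 to 683 in control males and 280 to 393 in control females, that of 7 astrocyte markers 580 to 658 and 407 to 441, and that of 7 microglia markers 81.1 to 88.4 and 62.7 to 66.8. The sum of the 6 choroid plexus markers ran from 1201 to 3517 in control males and from 11.1 to 4976 in control females. Dentate granule cell markers summed to 45.2 to 52.5 in control males and 57.4 to 73.6 in control females. Thalamus and habenula markers summed to 24.0 to 27.5 and 14.3 to 23.3. The sums of interneuron, oligodendrocyte precursor, and endothelial and mural cell markers overlapped between the control groups. The part of these differences in the lower Gria1, Cacng8 and Shisa9 was not tested, and receptor-gene background, at most 0.0284 FPKM in control males and at least 0.0882 in control females, also separates the same libraries. Without background subtraction the log2 differences were -0.09 for Gria1, -0.16 for Cacng8 and -0.04 for Shisa9 and none passed, on a scale that moved the median of the same genes to 0.41 in place of -0.07. Gria1 kept its call when any 1 of the 12 libraries was left out, with a largest adjusted p of 0.0382, whereas Cacng8 kept it in 4 and Shisa9 in 8 of these fits. The call of Cacng8 was lost without any 1 of cKO female 3, cKO male 1 and the 6 control libraries, with adjusted p-values up to 0.173. That of Shisa9 was lost without control female 1, control female 2, control male 2 or control male 3, with adjusted p-values up to 0.0845. On deposited FPKM the adjusted p was 0.105 for Gria1, 0.109 for Cacng8 and 0.0883 for Shisa9, and with no filter on low values 0.157 for Cacng8 and 0.084 for Shisa9.

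The other genes of the receptor's assembly and traffic were described from lists. Of 20 further auxiliary and associated proteins, 17 passed the filter, and none was called for cKO against control in females, where 0.0731% of all genes were, or in males, where 0.00665% were, with medians of -0.20 and -0.07. Of 8 genes of receptor assembly in the endoplasmic reticulum, all 8 were tested, and of 15 genes of scaffolds and traffic 14 were tested, with none called for cKO against control in either sex. The medians of the assembly genes were -0.03 in females and -0.04 in males, and those of the scaffold genes -0.03 and -0.04. None of the 3 RNA editing enzymes was called. With so few genes called in all, these counts of 0 do not set the lists apart from other genes. Adarb1, which edits the pore residue of GluA2, averaged 8.94 ± 2.36 background-subtracted scaled FPKM in cKO females and 9.64 ± 1.35 in control females, and 8.37 ± 0.799 in cKO males and 8.50 ± 0.831 in control males (SD, n = 3 each).

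In control males against control females, 5 of the 17 tested associated proteins were called lower and none higher, where 5.28% of all genes were called lower and 11.9% in either direction. The neuronal and glial markers and the receptor-gene background differed between the same groups, and their part in these calls was not tested. The 5 lower genes included the pentraxin Nptx1, which averaged 35.5 ± 1.38 in control males and 64.2 ± 6.41 in control females (log2 difference -0.84, adjusted p = 0.00389, limma), and the pentraxin receptor Nptxr, with 33.6 ± 10.1 and 73.5 ± 9.55 (-1.16, adjusted p = 0.0097, limma). Both help to cluster AMPA receptors at the synapse. Nptxr is also 1 of the 10 pyramidal neuron markers, so its fall counts in both lists. The auxiliary subunit Shisa6 averaged 2.39 ± 0.258 in control males and 4.66 ± 0.338 in control females (-0.84, adjusted p = 0.00623, limma). Against the same 5.28% of genes called lower, 3 of the 14 scaffold and traffic genes were, and none was called higher; among the 3 was Nsf, the ATPase that binds GluA2, with 50.3 ± 0.350 and 90.1 ± 5.39 (-0.83, adjusted p = 0.00297, limma). Of the 8 assembly genes 1 was called higher, Cnih1, a cornichon family member, and 1 lower, Porcn, which binds the receptor before export, where 11.9% of all genes were called in either direction. The editing enzyme Adar was lower as well, with 4.96 ± 0.451 in control males and 7.72 ± 0.577 in control females (-0.59, adjusted p = 0.0211, limma).

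Library to library, within groups, the subunit genes did not all vary together. Pearson correlations of log2 deviations from the group means were computed over the 12 libraries, which share depth and background, and are given as a description. Gria1 and Gria2 had r = 0.853, Gria1 and Cacng8 r = 0.855, and Gria1 and Gria4 r = -0.482. Among 6344 genes with a mean of at least 5, the 3 most like Gria1 were Enc1 (r = 0.960), Slc7a14 (0.942) and Grin2a (0.935), and those most like Gria2 were C1ql3 (0.905), Scn3a (0.873) and Dctn5 (0.872). Those most like Gria3 were Ash1l (0.976), Son (0.955) and Zmat4 (0.950), and those most like Gria4 were Necab1 (0.931), Zc3h7b (0.927) and Ppp2r2a (0.912).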

How the data were processed

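The submitters' processing notes name HISAT2 2.0.4, StringTie and the build GRCm38.p6; the sources used here do not state the annotation release, trimming or use of strand. The authors deposited FPKM and coverage per transcript, with no counts, so intervals from counting cannot be given. Of 137862 transcripts, 137749 matched GENCODE M21, which gave exons, transcript types and sequences. FPKM was a constant multiple of coverage within a table, from which mapped bases were recovered.

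For genes, bases were divided by the union of exons, the median of 1459 protein-coding receptor genes was subtracted and values under 0 were set to 0. Libraries were scaled by median of ratios over the 5394 protein-coding genes that averaged 5 or more. A gene was kept if it averaged 1 or more and reached 1 in 3 libraries (15042). Transcripts were kept at 0.5 FPKM in 3 libraries (80411), divided by the same factors, with no subtraction. limma 3.58.1 in R 4.3.3 (trend, robust) fitted log2(value + 0.5) with 4 group means over 12 libraries, two-sided, with Benjamini-Hochberg adjustment and a threshold of 0.05. The added 0.5 makes fold changes of low genes smaller. The subtraction can make them larger in libraries with a high background, so fold changes of low genes may err in either direction. The fits were also run on simulated data, in which noise was independent and each gene had the same spread in every library. The simulation held no differences in depth or background between libraries, so it cannot show how the fits behave under them. Flip and flop exons were named by the serine or asparagine codon that follows the codons LKL in the translated exon.

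The members and lists, and the background subtraction, were chosen with earlier results of these data known. Named genes were the 10 members and Atrx, and up to 4 of each list by smallest p among those called, or else by level. For the lists of cell type markers only sums and counts are given. Transcripts named were the 3 of highest mean FPKM per member, flip and flop transcripts with a mean of at least 1 and those past the threshold; other transcripts named were chosen after their values were seen. Alternatives were no subtraction, other scaling, pseudocounts and filters, library weights, a replicate block, the sexes fitted apart and libraries left out. The alternatives on deposited FPKM and on transcripts with both exons were chosen after seeing the data.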

Additional observations from a re-analysis of the deposited data

How the results depend on the processing

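The cKO comparisons gave 40 log2 differences of the 10 genes. Over 22 settings and 860 recomputed values, 805 kept their direction and side of the threshold, 10 newly passed it, 0 ceased to pass and 45 changed sign. None of the 40 passed in the main fit, so none could cease to pass, and the count kept is no measure of stability. The cause of the changes was not tested. In the comparison of control groups the counts were 169 of 210 kept, 6 newly passed, 23 ceased to pass and 12 changed sign.

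Without background subtraction the median of the same 15042 genes moved to -0.59 in females, -0.17 in males, -0.39 for the mean, 0.42 for the male minus the female effect and 0.41 for control males against control females. Sign changes there were, in females, Gria4 -0.85, Cacng3 -0.28 and Cnih2 -0.98, and in males Gria1 -0.057, Gria2 -0.22, Gria4 -0.19, Cacng8 -0.092 and Cnih2 -0.18. For the mean they were Gria1 -0.65, Gria4 -0.52, Cacng3 -0.32 and Cnih2 -0.58, and for the male minus the female effect Gria4 0.67 and Cnih2 0.79. Between control males and control females they were Gria2 0.28, Gria3 0.12, Cacng2 0.44, Cacng3 0.20 and Atrx 0.19. Genes called numbered 0 in females, 0 in males, 0 for the mean and 78 between controls.

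On deposited FPKM, added after seeing the data, the sign changed for Gria4 at -0.16 and Cnih2 at -0.26 in females, for Gria1 at -0.16, Gria4 at -0.05 and Cnih2 at -0.10 in the mean, for Gria4 at 0.21 and Cnih2 at 0.32 in the male minus the female effect, and for Gria4 at -0.007 between controls. Genes called numbered 10452 in females, 0 in males and 341 between controls. With no filter, 32 were called in females and 723 between controls. With library weights, 3360 were called in females, 15 in males, 3281 for the mean, 1601 for the difference of effects and 5035 between controls, where Gria4 was at -0.06. With the sexes fitted separately, 0 were called in females and 5 in males.

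Without cKO females 2 and 3, values in females were Gria1 0.13, Gria4 -0.16, Cacng2 0.004 and Cacng8 0.044. For the mean they were Gria4 -0.068, Cacng3 -0.042, Cacng8 0.079 and Cnih3 0.16, and for the male minus the female effect Gria3 -0.006, Gria4 0.19 and Cacng2 -0.20. Genes called numbered 10 for the mean and 3378 between controls. Counting transcripts with both exons for each gave flip share differences of -12.7 in Gria2 and -2.79 in Gria3.

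The replicate numbers were not shown to pair the libraries: same-numbered libraries correlated at over 0.1 in 3 of 6 pairs, and 5 of 12 libraries correlated best with their own number. With the replicate block, 0 genes were called in females, 0 in males, 0 for the mean and 4 between controls, where Cacng3 was at 0.086 and Gria1, Cacng8 and Shisa9 had adjusted p-values of 0.147, 0.239 and 0.317. Transcripts called under the block numbered 21919 in females and 55 between controls, and Gria2-203 kept its call in females (adjusted p = 0.0421).

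Leaving out each library gave 1 to 5804 genes called in females, 1 to 2 in males, 3 to 4517 for the mean, 0 to 3031 for the difference of effects and 539 to 2768 between controls, the highest of the counts for females, the mean and the difference without cKO female 1. Transcripts called ran from 21 to 52365 in females, 4 to 14 in males, 12 to 47907 for the mean, 7 to 40709 for the difference and 150 to 575 between controls. Ranges that crossed 0 were Gria1 -0.11 to 0.049 in females; Gria2 -0.11 to 0.11, Gria3 -0.12 to 0.01, Gria4 -0.069 to 0.11, Cacng8 -0.046 to 0.25, Cnih2 -0.06 to 0.19 and Gria2-203 -0.32 to 0.50 in males; Cnih3 -0.88 to 0.012 for the mean; Cnih2 -0.24 to 0.009 and Shisa9 -0.041 to 0.17 for the difference. Between controls they were Gria4 -0.054 to 0.17, Cacng2 -0.11 to 0.034 and Cacng3 -0.48 to 0.001. Flip share differences ran from 5.56 to 9.96 in Gria1, 2.19 to 5.16 in Gria3 and -31.4 to -13.8 in Gria4. Gria2-203 passed in females in each fit run, and the mean of its effects also passed with a pseudocount of 0.1 (adjusted p = 0.0392).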
